A study of Mus musculus with 20 samples.

Results

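The change seen with palmitate in Ripk3-/- cells was set against the change seen in wild-type cells, gene by gene. The cells were AML-12, a line of immortalised mouse hepatocytes, and expression was measured by RNA-seq. The 4 groups were Ripk3-/- cells given 125 µM palmitate on a bovine serum albumin carrier during 24 h, untreated Ripk3-/- cells, wild-type cells given the same palmitate, and untreated wild-type cells, with 5 libraries in each. No group was described as given albumin alone, so the carrier's effect and that of palmitate cannot be told apart. The labels name neither the number of knockout clones nor separate cultures for the 5 libraries, so clone and genotype cannot be told apart, and any p-value speaks of variation among these libraries that may be technical only. The quantity tested was the palmitate effect in Ripk3-/- cells minus that in wild-type cells, on the log2 scale. A positive value means a larger rise or a smaller fall in Ripk3-/- cells, and a negative value a smaller rise or a larger fall.

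RIPK3 is a kinase that, when activated through RIPK1 or related adaptors, phosphorylates MLKL and starts necroptosis, a lytic form of cell death, and it also feeds into inflammatory signalling. Palmitate is a saturated fatty acid used on hepatocytes to model lipid overload. It is known to activate the fatty acid sensor PPAR alpha, the integrated stress response through ATF4, and stress-activated MAP kinases that act on AP-1, the transcription factor made of FOS and JUN proteins.

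The authors deposited 4 tables that list only genes past their own threshold in a comparison of 2 groups, and 6261 genes stood in at least 1 of them. A difference between palmitate effects needs counts in all 4 groups, and 2993 genes had them. Of these, 984 were listed for palmitate in both genotypes and 2239 for genotype in both treatments, with 230 listed in both ways. Another 1190 genes were listed for palmitate in wild-type cells only, of which 951 could not be tested here, and 332 were listed in Ripk3-/- cells only, of which 264 could not be tested. Genes with a response in 1 genotype are therefore those least covered by the comparison.

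The 20 libraries held 21.2 M to 30.1 M reads, and the genes tested took 33.5% to 35.9% of them. Untreated Ripk3-/- replicate 1 stood apart from the rest of its group, mainly in short genes. Replicates 4 and 5 were low for FOS-type genes in several groups. Hepatocyte markers were present but modest: albumin (Alb) averaged 318 and 185 normalised counts in palmitate-treated and untreated Ripk3-/- cells, and 357 and 204 in palmitate-treated and untreated wild-type cells. Most tested hepatocyte markers were lower in Ripk3-/- cells: 7 of 10 were below wild type under each condition, with a median log2 ratio of Ripk3-/- to wild-type cells of -0.62 with palmitate and -0.80 untreated, beside 0 and 0.05 over all genes tested. Another 21 markers of the list were not tested. Genes not listed for palmitate in both genotypes were tested only if listed for genotype in both treatments. The size of this gap therefore cannot be told apart from that selection. Apoe, an apolipoprotein, averaged 365 and 308 normalised counts in treated and untreated Ripk3-/- cells, and 2203 and 2226 in treated and untreated wild-type cells. Markers of cholangiocytes (Krt19, Sox9 and Spp1) and of mesenchymal cells (Vim, Fn1, Sparc) were also detected, while the macrophage list had 2 of 13 members tested (Cd14 and Cd68) and the endothelial list 1 of 12 (Stab1). Fewer cells of a type and less RNA per cell cannot be told apart in such bulk samples.

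Ripk3 itself (ENSMUSG00000022221, chromosome 14, 55784995 to 55788865 on mm10) had 11.7, 7.52, 2.83, 8.25 and 2.12 normalised counts in palmitate-treated Ripk3-/- libraries, against 5.73, 8.36, 2, 5.59 and 1.16 in untreated ones. Wild-type libraries had 19.0, 22.2, 18.9, 23.2 and 27.0 with palmitate, against 10.2, 17.8, 25.5, 16.9 and 18 untreated. Under either treatment all 5 Ripk3-/- libraries lay below all 5 wild-type ones, whereas palmitate-treated and untreated libraries overlapped within each genotype. The difference of the palmitate effects was 0.12 with a 95% interval from -0.997 to 1.23, from 29 and 22 reads in the palmitate-treated and untreated Ripk3-/- groups and 114 and 97 in the wild-type ones, so a genotype difference in the palmitate effect on Ripk3 was not detectable at this depth.

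No single gene passed the test for a difference of the palmitate effect between genotypes. edgeR's quasi-likelihood test with Benjamini-Hochberg adjustment called 0 of 2993 genes (0%), with a smallest adjusted p of 0.209. At an unadjusted p under 0.05 there were 172 genes (5.75%), 121 with a negative difference (4.04%) and 51 with a positive one (1.7%). At any p, 1605 genes (53.6%) had a negative difference, the share beside which the counts of the gene lists stand. DESeq2 called 6 genes (0.2%) with Benjamini-Hochberg adjustment, namely Slc7a11, Slc20a1, Pim2, Gm26917, Ubb and Aldh1a7, and limma called 0. The median difference over all genes was -0.008 with a median SE of 0.08. The 95% interval lay within 0.5 of zero on the log2 scale for 79.5% of genes and within 1 for 94.3%. Precision followed level: the interval lay within 0.5 for 97.8% of the 1527 genes above 1000 normalised counts, but for 7.37% of the 380 genes under 100. An estimated difference over 1 in size was seen in 11 genes, all of them under 100 counts and 3 of them with an unadjusted p under 0.05.

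**Figure D1:**
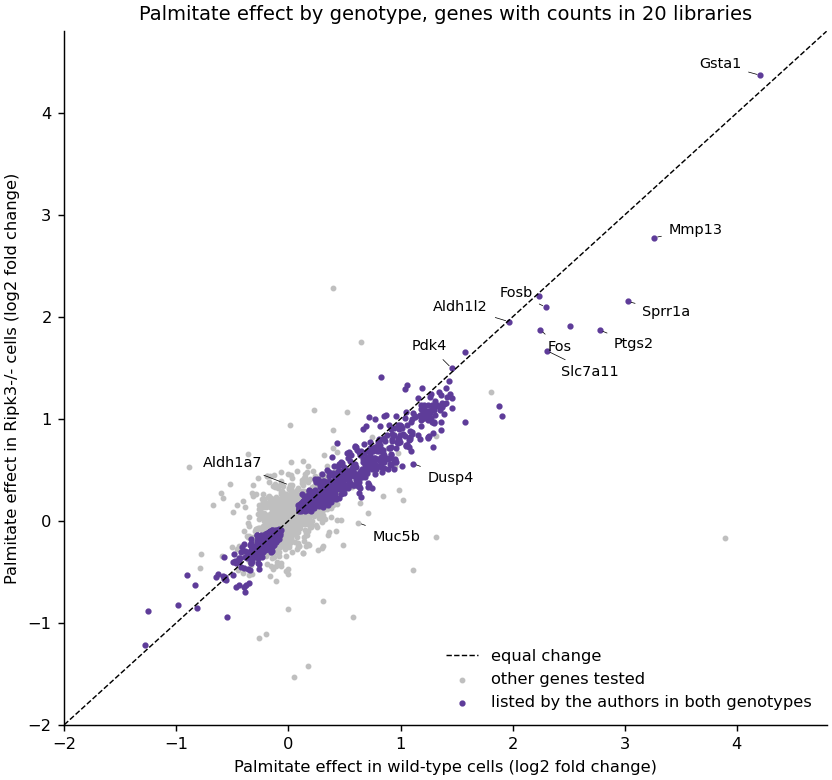
Palmitate effect in Ripk3-/- cells (vertical, log2 fold change) against that in wild-type cells (horizontal, log2 fold change) for the 2993 genes tested, 1 point per gene, with the line of equal change dashed. Purple genes are the 984 the authors listed in both genotypes; those with the strongest rises, among them Slc7a11, Ptgs2 and Sprr1a, lie mostly under the line, and no purple gene is in the upper left or lower right corner.

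The genes that rose with palmitate in both genotypes tended to rise less in Ripk3-/- cells. Of the 602 rising genes listed in both, 449 (74.6%) had the smaller rise in Ripk3-/- cells, with a median difference of -0.07; among the 382 falling genes, 188 (49.2%) had the smaller fall, with a median difference of -0.002. The share grew with the size of the response. It was 54.7% of 161 genes with a mean rise up to 0.25, 76.6% of 175 genes up to 0.5, 83.2% of 179 genes up to 1 and 89.7% of 87 genes beyond. In the last class the median rise was 1.09 in Ripk3-/- cells and 1.27 in wild-type cells, and the median difference was -0.19. These are descriptions without a test, over genes that share the same 20 libraries. Without untreated Ripk3-/- replicate 4 the 449 became 379, and with edgeR's TMM scaling it became 486.

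In medians, the genotypes differed more in untreated than in palmitate-treated levels of these genes. Over the 602 rising genes, the median log2 ratio of Ripk3-/- to wild-type cells was 0.005 with palmitate and 0.08 without it, beside 0 and 0.05 over all genes tested. For the 87 genes with a mean rise over 1 it was -0.06 with palmitate and 0.15 untreated, with 58 genes below wild type in treated cells and 67 above wild type in untreated cells. Within the same fit, palmitate called 597 genes higher (19.9%) and 392 lower (13.1%) in Ripk3-/- cells, and 644 higher (21.5%) and 388 lower (13%) in wild-type cells. Since the authors chose part of these genes on the same comparisons, the calls are a description, and the share of higher genes among them, 60.4% in Ripk3-/- and 62.4% in wild-type cells, was 44.5% and 47.0% with DESeq2's size factors and 49.7% and 58.6% with TMM. In 383 genes (12.8%) every palmitate-treated library was above every untreated one in both genotypes and in 221 (7.38%) it was below in both, while in 0 genes the genotypes separated in opposite directions. In 156 genes (5.21%) treatment separated the libraries of Ripk3-/- cells and not those of wild-type cells, and in 400 (13.4%) those of wild-type cells and not those of Ripk3-/- cells. A separation in 1 genotype is not a test of the difference.

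Among genes that import cystine and build glutathione, Slc7a11, the cystine-glutamate exchanger of system xc-, led the difference (ENSMUSG00000027737, chromosome 3, 49892526 to 50443614). It had 608, 619, 574, 485 and 569 normalised counts in palmitate-treated Ripk3-/- libraries, against 156, 172, 154, 199 and 221 in untreated ones. Wild-type libraries had 752, 909, 748, 697 and 757 with palmitate, against 159, 158, 120, 166 and 178 untreated. All 5 treated wild-type libraries lay above all 5 treated Ripk3-/- libraries, and the untreated groups overlapped. The log2 ratio of Ripk3-/- to wild-type means was -0.44 with palmitate and 0.21 untreated. Slc7a11 rose by 1.67 in Ripk3-/- cells and by 2.30 in wild-type cells, with a difference of -0.64 (SE 0.15, 95% interval -0.94 to -0.33, edgeR quasi-likelihood Benjamini-Hochberg adjusted p = 0.209; DESeq2 adjusted p = 0.0186).

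Gclc, the catalytic subunit of the enzyme that makes gamma-glutamylcysteine (ENSMUSG00000032350, chromosome 9, 77754535 to 77794485), had 13914, 14716, 14952, 14351 and 14405 normalised counts in treated Ripk3-/- libraries, against 12757, 12264, 12191, 13519 and 12090 untreated. In wild-type libraries these were 15305, 15683, 14949, 15161 and 15384 with palmitate, against 12524, 11464, 11192, 12092 and 11636 untreated. Treated and untreated libraries were apart in both genotypes, while the genotypes overlapped under either condition. The rise was 0.20 in Ripk3-/- cells and 0.38 in wild-type cells (difference -0.17, 95% interval -0.27 to -0.08). Slc3a2, the heavy chain that partners Slc7a11, differed by -0.12 (SE 0.06) and Cth, which makes cysteine from cystathionine, by -0.12 (SE 0.17). All 6 tested members of the list of 13 had a negative difference, with a median of -0.12 beside -0.008 over all genes; 5 of the 6 rose in each genotype, and 2 had an unadjusted p under 0.05. For rising genes listed in both genotypes with a mean rise of 0.25 to 0.5, 76.6% were negative, with a median of -0.07. In replicates 4 and 5 alone, a split added after the data were seen, 4 of the 6 differences were negative.

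The integrated stress response works through ATF4, which binds the C/EBP-ATF response element (CARE) and induces amino acid transporters, serine synthesis and tRNA charging. Of 39 listed ATF4 targets 21 were tested; 14 rose in Ripk3-/- cells and 17 in wild-type cells, none fell, and 18 (85.7%) had a negative difference (median -0.10), 6 of them with an unadjusted p under 0.05 against 0 on the positive side. The share of negative differences was 53.6% over all genes and 76.6% among rising genes with a mean rise of 0.25 to 0.5, and without untreated Ripk3-/- replicate 5 the list median was -0.06. Shmt2, the mitochondrial serine hydroxymethyltransferase (chromosome 10, 127517123 to 127522444), had 2754, 3039, 3154, 2901 and 3143 normalised counts in treated Ripk3-/- libraries, against 2473, 2330, 2318, 2739 and 2589 untreated. Wild-type libraries had 3325, 3298, 3193, 3019 and 3260 with palmitate, against 2299, 2116, 2236, 2526 and 2214 untreated. Treatment separated the libraries in each genotype and the genotypes overlapped; the rise was 0.27 in Ripk3-/- cells and 0.50 in wild-type cells (difference -0.23, 95% interval -0.37 to -0.08). An exon of Ndufa4l2 overlaps Shmt2 on the other strand, and the strand setting of the counting is not given in the sources used here.

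Further ATF4 targets, all but Wars picked out after their values were seen, differed in the same direction. Trib3, a pseudokinase that feeds back on this response, rose by 0.56 in Ripk3-/- cells and by 0.91 in wild-type cells (difference -0.35, SE 0.12). Gdf15, a secreted stress cytokine, rose by 0.45 and by 0.65 in the same order (difference -0.20, SE 0.09). Slc7a5, the light chain of the leucine transporter, rose by 0.35 in wild-type cells and its estimate in Ripk3-/- cells was 0.15 (difference -0.20, SE 0.07). Wars, the tryptophanyl-tRNA synthetase, rose by 0.19 in Ripk3-/- cells and by 0.34 in wild-type cells (difference -0.14, SE 0.05). Aldh1l2, the mitochondrial formyltetrahydrofolate dehydrogenase, is among the strongest palmitate responders and had no such gap. It had 202, 232, 227, 212 and 226 normalised counts in treated Ripk3-/- libraries, against 63.1, 57.5, 47.1, 60.4 and 55.8 untreated, and 230, 235, 236, 217 and 224 in treated wild-type libraries, against 60.4, 56.1, 45.5, 61.1 and 68.2 untreated. It rose by 1.95 in Ripk3-/- cells and by 1.97 in wild-type cells, a difference of -0.02 with a 95% interval from -0.31 to 0.28.

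The promoter windows below, from RefSeq on GRCm38.p6 and running from 250 bases before to 50 bases after the start site, are shown for 3 of the strongest palmitate responders, because their response elements can be read directly. In Slc7a11 (chr3:50443564-50443863, minus strand) the capitals mark the CARE, searched as TGATGNAA on both strands, which matched at -66 and, on the opposite strand, at -47. In Sprr1a (chr3:92485832-92486131, minus strand) and Mmp13 (chr9:7272264-7272563, plus strand) the capitals mark the AP-1 element, searched as TGANTCA on both strands.
Slc7a11: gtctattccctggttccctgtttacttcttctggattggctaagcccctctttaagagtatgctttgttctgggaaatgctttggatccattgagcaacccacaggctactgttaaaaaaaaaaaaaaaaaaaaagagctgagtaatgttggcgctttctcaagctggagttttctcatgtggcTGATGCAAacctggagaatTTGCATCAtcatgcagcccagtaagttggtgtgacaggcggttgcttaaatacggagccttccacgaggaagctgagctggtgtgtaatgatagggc
Sprr1a: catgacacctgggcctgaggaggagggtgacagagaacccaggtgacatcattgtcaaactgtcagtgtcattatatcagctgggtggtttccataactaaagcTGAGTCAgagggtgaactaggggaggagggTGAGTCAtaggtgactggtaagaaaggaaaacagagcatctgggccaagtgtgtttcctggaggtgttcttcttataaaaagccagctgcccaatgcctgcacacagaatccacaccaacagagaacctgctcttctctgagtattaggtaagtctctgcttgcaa
Mmp13: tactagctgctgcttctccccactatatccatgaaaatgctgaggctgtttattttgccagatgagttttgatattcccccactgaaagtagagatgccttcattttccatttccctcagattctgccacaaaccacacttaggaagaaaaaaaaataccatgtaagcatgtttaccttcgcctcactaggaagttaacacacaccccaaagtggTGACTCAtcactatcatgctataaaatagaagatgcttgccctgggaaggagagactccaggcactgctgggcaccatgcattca
Some genes have several windows, so matches were counted per gene. Over the 27025 genes with 32851 windows, 4.51% held a CARE match in at least 1 window and 8.97% an AP-1 match. Of the 27 genes with the smallest p for the difference or the strongest response, 19 had windows, 31 in all. A CARE match was in 3 of these genes (Slc7a11, Ubb and Frmd4b) and an AP-1 match in 5 (Sprr1a, Mmp13, Ubb, Frmd4b and Prss23). Slc7a11, Sprr1a and Mmp13 rose in both genotypes and Prss23 fell in both. Ubb and Frmd4b stood at -0.05 and -0.11 in wild-type cells. A further motif, the antioxidant response element searched as TGACNNNGC, was in 5 of the 19 genes and in 13.99% of all genes with windows, and in Sprr1a it overlapped an AP-1 match. Since the 19 genes have more windows each than genes at large, the shares are not on an equal footing. A match describes the letters of the window and is not a bound site.

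Immediate early genes and the feedback regulators of MAP kinase signalling had the lowest median of the lists with at least 3 tested members, -0.21 over 15 tested of 35, with 13 negative differences. The 13 were 86.7% of the list, beside 76.6% of rising genes with a mean rise of 0.25 to 0.5, whose median was -0.07. With single libraries left out, the list median ranged from -0.25 to -0.14 and the negative differences numbered 11 to 15. Palmitate raised 7 of the 15 genes in Ripk3-/- cells and 10 in wild-type cells, and lowered 1 in each. Dusp4, a nuclear phosphatase that inactivates ERK and JNK (ENSMUSG00000031530, chromosome 8, 34807297 to 34819894), had 1627, 1506, 1479, 1272 and 1356 normalised counts in treated Ripk3-/- libraries, against 1227, 994, 1010, 895 and 774 untreated. Wild-type libraries had 1464, 1509, 1464, 1105 and 1103 with palmitate, against 648, 627, 647, 629 and 525 untreated. The treated groups overlapped, whereas every untreated Ripk3-/- library was above every untreated wild-type library. The log2 ratio of Ripk3-/- to wild-type means was 0.12 with palmitate and 0.67 untreated, and replicates 4 and 5 were the lowest in all groups but untreated wild-type cells. Dusp4 rose by 0.56 in Ripk3-/- cells and by 1.11 in wild-type cells (difference -0.55, SE 0.16, 95% interval -0.89 to -0.21, edgeR quasi-likelihood Benjamini-Hochberg adjusted p = 0.567). The adjusted p for this difference was 0.0981 with DESeq2 and 0.454 with limma. In analyses added after the data were seen, the difference was -0.70 with replicates 1 to 3 alone (edgeR adjusted p = 0.00656), -0.28 with replicates 4 and 5 alone (edgeR adjusted p = 0.778) and -0.53 with a term for these sets of replicates (SE 0.09, edgeR adjusted p = 0.0137). Since the sets were drawn with these values known, their adjusted p-values are not an independent test of Dusp4.

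Phlda1, an early response gene that restrains growth signalling (ENSMUSG00000020205, chromosome 10, 111506286 to 111508645), had 382, 369, 395, 338 and 353 normalised counts in treated Ripk3-/- libraries, against 338, 299, 294, 297 and 338 untreated. Wild-type libraries had 410, 385, 439, 394 and 366 with palmitate, against 249, 235, 307, 232 and 255 untreated. Treated and untreated libraries touched in Ripk3-/- cells and were apart in wild-type cells. Phlda1 rose by 0.64 in wild-type cells and its estimate in Ripk3-/- cells was 0.23 (difference -0.41, 95% interval -0.64 to -0.18). The authors listed it for palmitate in both genotypes, while the Ripk3-/- estimate did not pass in the edgeR fit used here (adjusted p = 0.0835). An exon of the antisense transcript Gm28592 overlaps Phlda1. Ier2, an immediate early nuclear protein named after its values were seen, rose by 0.51 in Ripk3-/- cells and by 0.94 in wild-type cells (difference -0.43, SE 0.14).

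Fos, an AP-1 subunit, varied more between libraries than the genes above. It had 830, 940, 1121, 234 and 203 normalised counts in treated Ripk3-/- libraries, against 270, 234, 242, 87.3 and 63.9 untreated, and 894, 805, 1000, 626 and 540 in treated wild-type libraries, against 179, 161, 184, 165 and 127 untreated. Replicates 4 and 5 were the lowest in both Ripk3-/- groups and in treated wild-type cells, and Fosb followed the same order. Fos rose by 1.87 in Ripk3-/- cells and by 2.24 in wild-type cells, and the difference of -0.37 had a 95% interval from -1.74 to 0.996; it was -0.65 without treated Ripk3-/- replicate 3 and -0.14 without treated Ripk3-/- replicate 5.

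**Figure D2:**
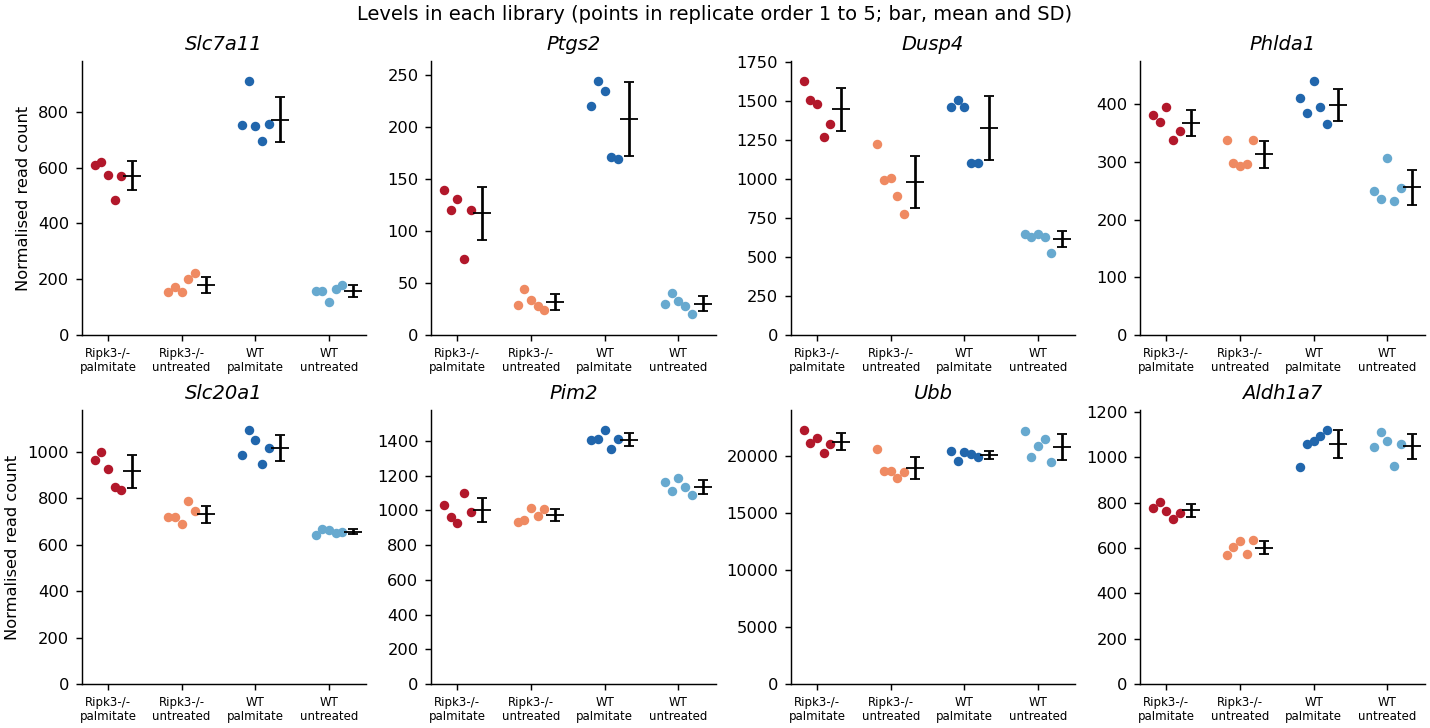
Normalised read counts (vertical, from 0) of 8 genes in palmitate-treated and untreated Ripk3-/- cells and palmitate-treated and untreated wild-type cells, 1 point per library in replicate order 1 to 5, with group mean and SD. For Slc7a11 and Ptgs2 the treated groups are apart and the untreated ones overlap, whereas for Dusp4 the untreated groups are apart and the treated ones overlap.

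The inflammatory list held Ptgs2, Sprr1a and Cxcl10, the members with the most negative differences in any list. Ptgs2, the inducible cyclooxygenase that makes prostaglandins (ENSMUSG00000032487, chromosome 1, 150100031 to 150108227), had 140, 120, 131, 73.0 and 120 normalised counts in treated Ripk3-/- libraries, against 28.7, 43.9, 34.1, 28 and 24.4 untreated. Wild-type libraries had 220, 244, 234, 171 and 169 with palmitate, against 29.8, 40.1, 32.8, 28.2 and 19.9 untreated. Treated wild-type libraries were all above treated Ripk3-/- libraries and the untreated groups overlapped. Ptgs2 rose by 1.87 in Ripk3-/- cells and by 2.77 in wild-type cells (difference -0.90, SE 0.28, 95% interval -1.48 to -0.33).

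Sprr1a, a small proline-rich protein of epithelial stress responses (ENSMUSG00000050359, chromosome 3, 92483952 to 92485895), had 101, 137, 127, 97.8 and 108 normalised counts in treated Ripk3-/- libraries, against 21.0, 27.2, 25, 20.1 and 36.0 untreated. Wild-type libraries had 312, 258, 270, 200 and 210 with palmitate, against 38.3, 24.9, 30.0, 39.5 and 19.9 untreated. As with Ptgs2, the treated groups did not overlap and the untreated ones did. Its rise was 2.15 in Ripk3-/- cells and 3.03 in wild-type cells (difference -0.87, SE 0.27). Mmp13, a collagenase with an AP-1 match in its promoter window, rose by 2.78 in Ripk3-/- cells and by 3.26 in wild-type cells, but its difference of -0.48 had an SE of 0.41 and was -0.91 without untreated wild-type replicate 1 and -0.24 without untreated Ripk3-/- replicate 2.

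Saa3, an acute phase serum amyloid, had 25647, 28970, 30168, 25651 and 25511 normalised counts in treated Ripk3-/- libraries, against 27673, 31054, 29644, 28370 and 33013 untreated. Wild-type libraries had 45298, 40000, 39863, 39823 and 40632 with palmitate, against 34299, 33735, 40544, 38094 and 36865 untreated. The genotypes were apart under both conditions and treatment groups overlapped within each. In the edgeR fit neither palmitate estimate passed (-0.14 in Ripk3-/- cells and 0.16 in wild-type cells), and their difference was -0.30 (SE 0.08). The authors' own test listed Saa3 for palmitate in wild-type cells and not in Ripk3-/- cells. Other members named after their values were seen were Cxcl10, a chemokine that rose by 1.03 in Ripk3-/- cells and by 1.90 in wild-type cells (difference -0.88, SE 0.29), and Saa1, at 0.08 in Ripk3-/- cells and 0.71 in wild-type cells (difference -0.63, SE 0.26). Saa1, Saa2 and Saa3 are close paralogs, so reads may be split between them. Ccl9, another chemokine, fell by 0.89 on the log2 scale in Ripk3-/- cells and by 1.25 in wild-type cells, which gave a positive difference of 0.36 (SE 0.13).

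The 25 tested inflammatory genes of 40 did not move one way. Palmitate raised 5 and lowered 12 in Ripk3-/- cells, and raised 7 and lowered 11 in wild-type cells. The median palmitate effect was -0.14 in both genotypes, although the mean list level was higher in treated than in untreated cells of each genotype. The median difference was -0.05, with 18 negative and 7 positive values.

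**Figure D3:**
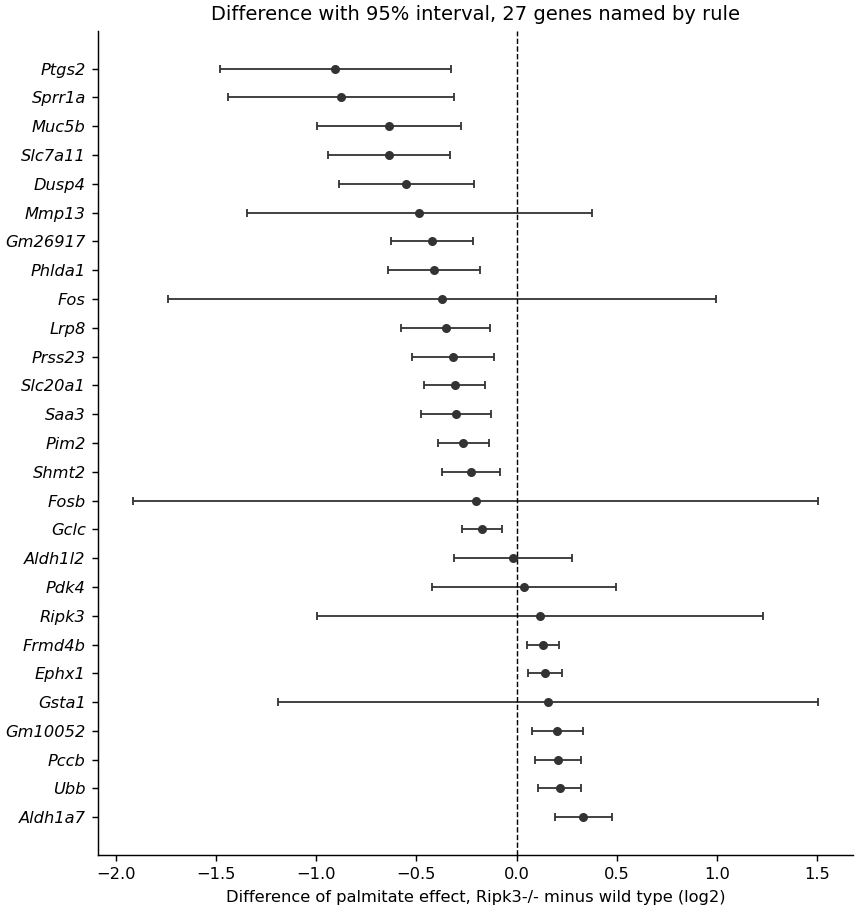
Difference of the palmitate effect, Ripk3-/- minus wild type, on the log2 scale (horizontal), with its 95% interval, for 27 genes: the 20 with the smallest p, 9 of the 10 strongest palmitate responders and Ripk3, some of which belong to more than 1 of these. Intervals are narrow for Ubb, Gclc and Frmd4b and span more than 2 log2 units for Fos, Fosb, Gsta1 and Ripk3.

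Cell cycle genes rose together in both genotypes. All 47 tested members of the list of 48 mitosis and spindle genes rose in both genotypes, and 45 (95.7%) had a negative difference (median -0.17; median rise 1.0 in Ripk3-/- cells and 1.17 in wild-type cells). Other rising genes listed in both genotypes came near this: among those outside the list, 81.8% of 159 genes with a mean rise of 0.5 to 1 and 86.7% of 60 genes beyond had a negative difference, with medians of -0.15 and -0.19. Racgap1, which helps position the cleavage furrow, rose by 0.74 in Ripk3-/- cells and by 1.05 in wild-type cells (difference -0.31, SE 0.12), and Kif23, its partner in the central spindle, rose by 0.71 and by 0.95 in the same order (difference -0.25, SE 0.11). Mki67, the proliferation antigen, had a difference of -0.33 (SE 0.16). In all, 3 of the 47 had an unadjusted p under 0.05.

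The mean log2 level of the mitosis list, relative to the mean of the 20 libraries, was 0.32, 0.61, 0.49, 0.44 and 0.64 in treated Ripk3-/- libraries, against -0.50, -0.58, -0.70, -0.10 and -0.41 untreated. In wild-type libraries it was 0.53, 0.55, 0.48, 0.58 and 0.55 with palmitate, against -0.52, -0.75, -0.77, -0.33 and -0.53 untreated. Treated levels overlapped between genotypes, and the highest untreated library was Ripk3-/- replicate 4. Without that library 32 of 47 differences were negative and the list median was -0.07, so its size rested in part on 1 library. Replication and nucleotide supply genes followed the same order: 35 of 37 tested rose in Ripk3-/- cells and 34 in wild-type cells, 32 had a negative difference (median -0.12) and 0 had an unadjusted p under 0.05; without untreated Ripk3-/- replicate 4 the negative differences were 27 and the median was -0.06. The 32 were 86.5% of this list, whose median rise was 0.45 in Ripk3-/- cells and 0.55 in wild-type cells. Rising genes listed in both genotypes came near this share. It was 76.6% for a mean rise of 0.25 to 0.5 (median -0.07) and 83.2% for 0.5 to 1 (median -0.15).

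**Figure D4:**
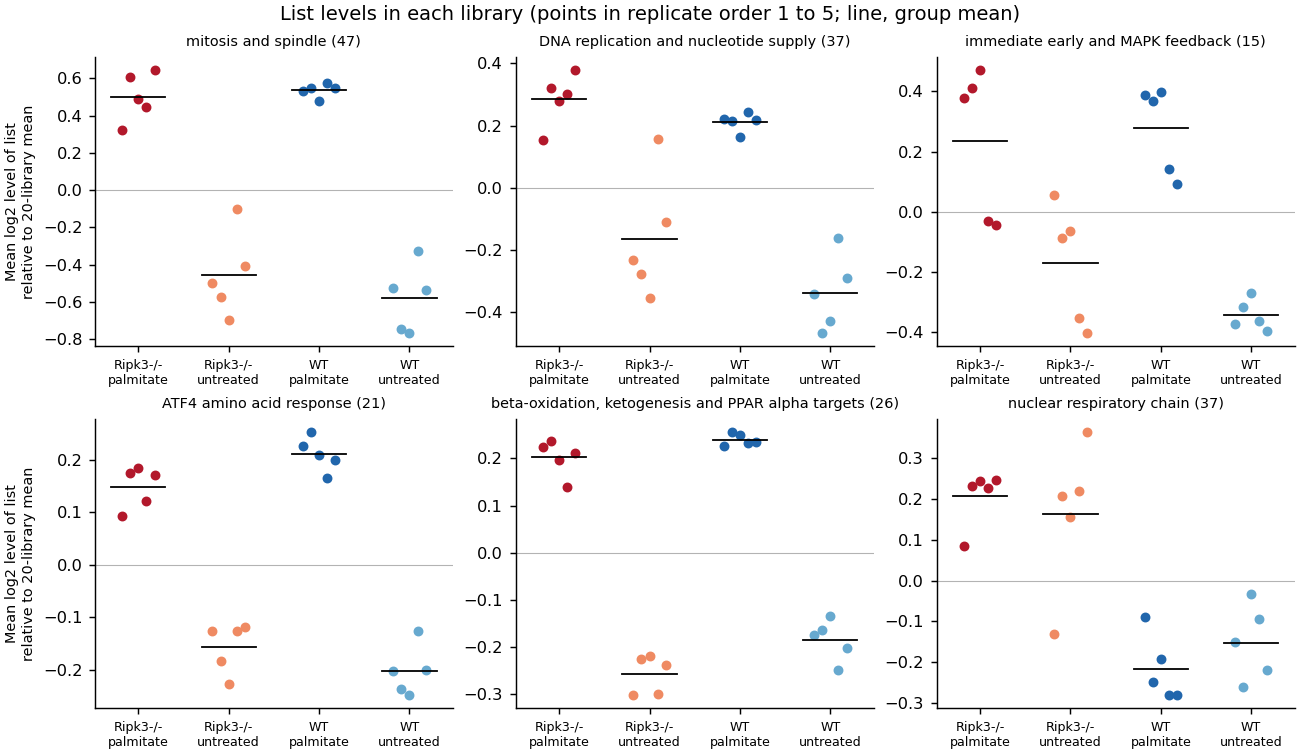
Mean log2 level of 6 gene lists relative to the mean of the 20 libraries (vertical), 1 point per library in replicate order 1 to 5 and a line at each group mean, for palmitate-treated and untreated Ripk3-/- and palmitate-treated and untreated wild-type cells. Treatment separates the mitosis and beta-oxidation lists in both genotypes; untreated Ripk3-/- replicate 4 is the highest untreated library of the mitosis list, and untreated Ripk3-/- replicate 1 is low in the respiratory chain list.

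Fatty acid oxidation and ketogenesis, the classical PPAR alpha response, rose in both genotypes with differences on either side of zero. Of 26 tested genes of 52, 21 rose in each genotype; differences were negative for 12 and positive for 14, with a median of 0.02. Pdk4, which turns cells from glucose to fat oxidation, rose by 1.49 in Ripk3-/- cells and by 1.46 in wild-type cells (interval of the difference -0.42 to 0.49). Acot2, a mitochondrial acyl-CoA thioesterase, rose by 1.01 in Ripk3-/- cells and by 0.72 in wild-type cells (difference 0.30, SE 0.09), and Vnn1, a pantetheinase, rose by 0.35 in Ripk3-/- cells and by 0.59 in wild-type cells (difference -0.23, SE 0.07).

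Lipid synthesis genes and genes of the actin-linked YAP and TEAD programme stayed near the overall median of differences. The fatty acid synthesis list had a median of -0.04 over 14 genes of 24, with Scd1, the stearoyl-CoA desaturase, rising by 1.30 in Ripk3-/- cells and by 1.41 in wild-type cells (interval of the difference -0.31 to 0.09). The cholesterol list had -0.03 over 12 of 30, with 0 genes at an unadjusted p under 0.05 in either lipid list. The YAP list had -0.01 over 18 of 30, with 14 genes lower after palmitate in each genotype. NRF2 targets and conjugating enzymes had a median of 0.02 over 19 of 32; Ephx1, the microsomal epoxide hydrolase, rose by 0.26 in Ripk3-/- cells and by 0.12 in wild-type cells (difference 0.14, SE 0.04).

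**Figure D5:**
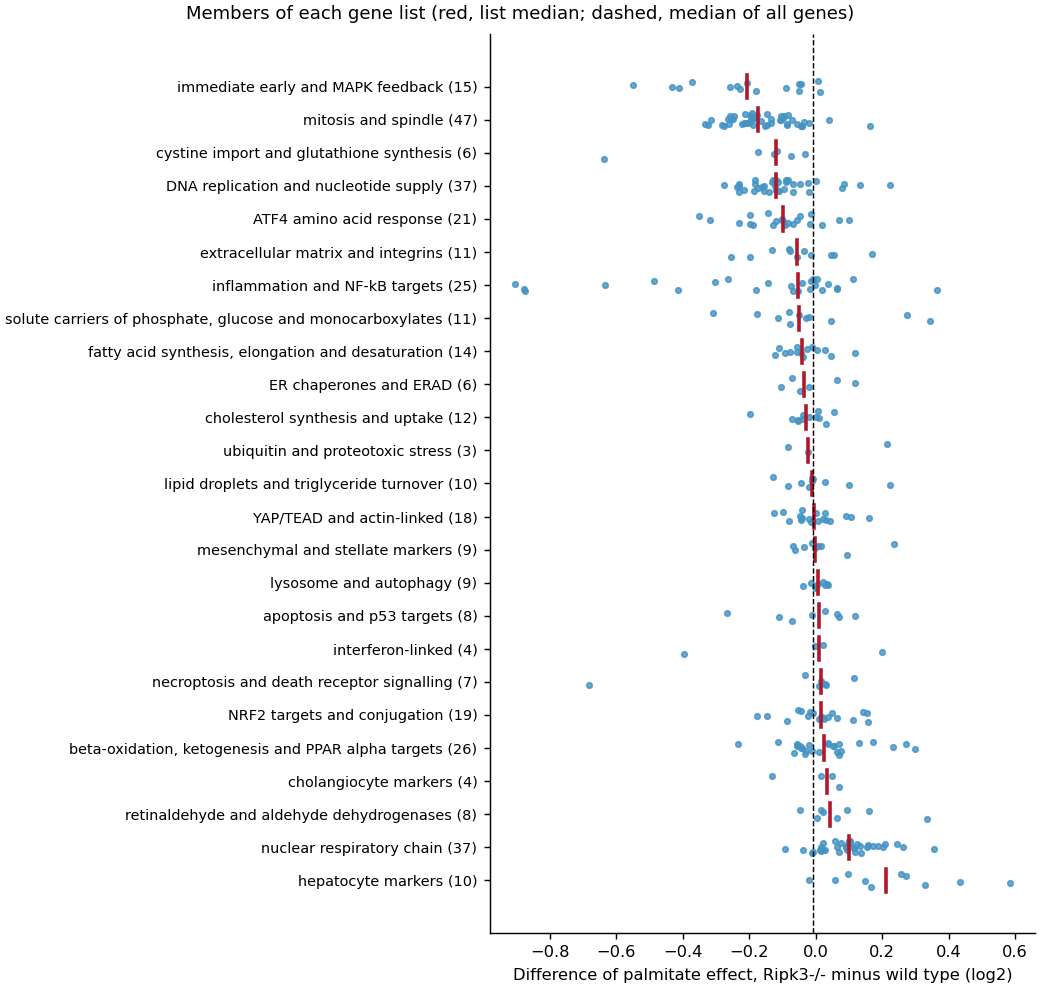
Difference of the palmitate effect, Ripk3-/- minus wild type, on the log2 scale (horizontal), for each tested member of the gene lists with at least 3 tested members, the number given in brackets. Red bars are list medians and the dashed line is the median of all 2993 genes. Among the lists shown the immediate early list has the lowest median, -0.21, and the hepatocyte marker list the highest, 0.21. The median SE of the hepatocyte differences was 0.20.

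Outside these groups, Slc20a1, a sodium-phosphate cotransporter (ENSMUSG00000027397, chromosome 2, 129198764 to 129211616), had 966, 1001, 925, 848 and 838 normalised counts in treated Ripk3-/- libraries, against 718, 719, 688, 787 and 745 untreated. Wild-type libraries had 984, 1092, 1051, 946 and 1016 with palmitate, against 642, 669, 662, 651 and 655 untreated. Treated groups overlapped and untreated Ripk3-/- libraries were all above untreated wild-type ones. It rose by 0.33 in Ripk3-/- cells and by 0.63 in wild-type cells (difference -0.31, SE 0.07, edgeR quasi-likelihood Benjamini-Hochberg adjusted p = 0.209; DESeq2 adjusted p = 0.0364), and exons of 2 transcripts on the other strand, 9830144P21Rik and Gm4430, overlap it.

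Pim2, a serine/threonine kinase that favours survival (ENSMUSG00000031155, chromosome X, 7878262 to 7883432), had 1030, 964, 929, 1101 and 989 normalised counts in treated Ripk3-/- libraries, against 933, 946, 1012, 967 and 1010 untreated. Wild-type libraries had 1403, 1409, 1460, 1356 and 1409 with palmitate, against 1164, 1110, 1188, 1136 and 1088 untreated. Wild-type treatment groups were apart, Ripk3-/- ones overlapped, and the genotypes were apart in both conditions. Pim2 rose by 0.31 in wild-type cells and its estimate in Ripk3-/- cells was 0.04 (difference -0.27, SE 0.06). The edgeR quasi-likelihood Benjamini-Hochberg adjusted p for Pim2 was 0.209, and the DESeq2 adjusted p was 0.0186. Gm26917, annotated as a long intergenic transcript of chromosome 17, rose by 0.32 in Ripk3-/- cells and by 0.75 in wild-type cells (difference -0.42, SE 0.10). With all libraries it did not pass with edgeR (adjusted p = 0.209) and passed with DESeq2 (adjusted p = 0.0186). Without untreated Ripk3-/- replicate 1 its difference was -0.48 and passed (edgeR adjusted p = 0.0249). Muc5b, a gel-forming mucin, rose by 0.62 in wild-type cells and stood at -0.02 in Ripk3-/- cells (difference -0.64, SE 0.17), where untreated cells averaged 291 ± 55.4 normalised counts, against 135 ± 20.8 in untreated wild-type cells (SD, n = 5 each).

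A smaller set differed in the positive direction. Aldh1a7, a cytosolic aldehyde dehydrogenase (ENSMUSG00000024747, chromosome 19, 20692953 to 20727562), had the smallest p of all genes, with 776, 805, 766, 729 and 755 normalised counts in treated Ripk3-/- libraries, against 570, 603, 629, 576 and 635 untreated. Wild-type libraries had 956, 1059, 1071, 1093 and 1119 with palmitate, against 1045, 1110, 1072, 961 and 1059 untreated. Treatment separated the Ripk3-/- libraries and left the wild-type ones overlapping, and the genotypes were apart throughout. Aldh1a7 rose by 0.35 in Ripk3-/- cells and its estimate in wild-type cells was 0.01 (difference 0.33, SE 0.07, 95% interval 0.19 to 0.48, edgeR quasi-likelihood Benjamini-Hochberg adjusted p = 0.209; DESeq2 adjusted p = 0.0167). Its close paralog Aldh1a1, a retinaldehyde dehydrogenase, rose by 0.50 in Ripk3-/- cells and by 0.34 in wild-type cells (difference 0.16, SE 0.05), and reads may be shared between the paralogs. Of 8 tested genes of the aldehyde dehydrogenase and retinoid list of 14, 7 had a positive difference (median 0.04), 3 of them with an unadjusted p under 0.05.

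Ubb, a polyubiquitin gene (ENSMUSG00000019505, chromosome 11, 62551171 to 62553213), had 22229, 21149, 21578, 20243 and 21024 normalised counts in treated Ripk3-/- libraries, against 20599, 18720, 18719, 18064 and 18628 untreated. Wild-type libraries had 20429, 19544, 20336, 20139 and 19872 with palmitate, against 22140, 19878, 20886, 21509 and 19437 untreated. All groups overlapped at their edges, with untreated Ripk3-/- replicate 1 far above the rest of its group. Ubb rose by 0.17 in Ripk3-/- cells and stood at -0.05 in wild-type cells (difference 0.22, SE 0.05). With all libraries it did not pass with edgeR (adjusted p = 0.209) and passed with DESeq2 (adjusted p = 0.0364). Without untreated Ripk3-/- replicate 1 the difference was 0.25 and passed with edgeR (adjusted p = 0.0435). Pccb, a subunit of propionyl-CoA carboxylase, fell by 0.21 on the log2 scale in wild-type cells and stood at -0.01 in Ripk3-/- cells (difference 0.21, SE 0.06).

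Nuclear genes of the respiratory chain leaned the same way without a single call. Of 37 tested of 74, 0 passed the palmitate test in either genotype, and 33 had a positive difference, with a median of 0.10. This leaning moved with 1 library, and over all genes the difference also varied with transcript length. Over all genes the median difference was 0.16 for the 159 genes of at most 600 bases, 0.07 for the 162 genes up to 1200, 0.02 for the 467 up to 2500 and -0.02 for the 2205 longer ones. The median length of the respiratory chain list was 1237 bases, close to the 1200-base edge between the classes with medians of 0.07 and 0.02. Members of the list lay in every class. Whether length accounts for the list median of 0.10 was not tested. Without untreated Ripk3-/- replicate 1 the median was 0.07 for the shortest class and 0.04 for the respiratory chain list, with 9 negative differences in place of 4. The mean level of the list was 0.08, 0.23, 0.24, 0.23 and 0.25 in treated Ripk3-/- libraries, against -0.13, 0.21, 0.16, 0.22 and 0.36 untreated, so that replicate 1 was the lowest in both groups.

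Hepatocyte markers had the highest median of the lists with at least 3 tested members, 0.21 over 10 tested of 31, with 9 positive differences. The median SE of these differences was 0.20, beside 0.08 over all genes tested, and 4 of the 10 intervals lay within 0.5 of zero. Alb rose in both genotypes, by 0.78 in Ripk3-/- cells and by 0.81 in wild-type cells (interval of the difference -0.28 to 0.23). Serpina1a, the antitrypsin gene, stood at 0.09 in Ripk3-/- cells and -0.50 in wild-type cells (difference 0.58, SE 0.26), and belongs to a family of near-identical copies. Without untreated wild-type replicate 3 the Serpina1a difference was 0.34, and without treated Ripk3-/- replicate 3 the list median was 0.13. In libraries numbered 4 and 5 alone, 6 of the 10 differences were negative and the median was -0.04. Among necroptosis and death receptor genes 7 of 20 were tested, with a median difference of 0.01 and 0 genes at an unadjusted p under 0.05.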

How the data were processed

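RNA-seq of 20 libraries in 4 groups of 5 was analysed from 4 deposited tables; groups and replicate numbers came from the sample titles. Per the submitters' processing notes, FastQC 0.11.9, HISAT2, featureCounts 1.5.0-p3 and DESeq2 were used with mm10. What else was set (versions, annotation, strand) is not given in the sources used here. Per the file headers, the authors deposited raw read counts per gene, normalised counts (a signal equal to the count divided by 1 factor per library), FPKM, log2 fold changes and p-values, only for genes past their adjusted p-value of 0.05. The authors' 8 enrichment tables were not used, and 0 columns belonged to other samples.

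Tables were merged on gene identifiers, and genes with counts in all 4 groups entered 1 edgeR 4.0.16 quasi-likelihood fit (R 4.3.3, robust dispersions, group means, no replicate block). Effective library sizes were joint size factors fitted to the authors' factors in the 4 tables, which they met within 0.00294 on the log2 scale. The difference was adjusted by Benjamini-Hochberg over the 2993 genes; palmitate effects within a genotype were adjusted over the authors' own number of tested genes. SEs came from the F statistic and 95% intervals from its degrees of freedom. The script was tested on simulated data. Alternatives were TMM and DESeq2 size factors, a minimum count of 50, DESeq2 1.42.0, limma 3.58.1 on log2(normalised count + 1), edgeR without robust dispersions, replicate blocks, each library left out, and, added after the data were seen, splits by replicate number. For genes, lists and the rise in untreated or treated cells, group means of normalised counts were compared without a test.

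Genes were named by these rules: the 20 smallest p for the difference, genes called by any alternative test, the 10 strongest palmitate responders above 50 normalised counts, the 2 members with the smallest p in each of 28 lists (818 genes, 382 tested), and Ripk3; a few of these genes are not reported here. Slc3a2, Cth, Mki67, Scd1, Alb and the genes marked so in the text were picked after their values were seen. Members and lists were chosen with earlier results of these data known. Precision was limited by reads per gene and by 5 libraries per group. Positions are the files' mm10 coordinates and promoter windows are RefSeq's.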

Additional observations from a re-analysis of the deposited data

Results flagged for a closer look

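Among 28 genes with values in every library, 112 groups of 5 were searched for 1 library far from the other 4, and 7 had one; chance gives about 1 in 20. In treated wild-type cells, replicate 2 had 909 normalised counts of Slc7a11, with the nearest library at 757. Untreated Ripk3-/- replicate 1 had 20599 counts of Ubb, with the nearest at 18720. Treated wild-type replicate 1 was high for Saa3, at 45298 with the nearest at 40632, and low for Frmd4b, a scaffold protein, at 2930 with the nearest at 3071. Untreated wild-type replicate 5 had 525 counts of Dusp4, with the nearest at 627, and untreated wild-type replicate 1 had 40.0 counts of Mmp13, with the nearest at 18.9. Untreated Ripk3-/- replicate 2 had 13.6 counts of Gsta1, a glutathione transferase, with the nearest at 2.87; its difference of 0.16 ranged from -0.51 to 1.43 when single libraries were left out.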

How the results depend on the processing

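The count of 0 genes passing for the difference held with TMM and DESeq2 size factors, a minimum count of 50, limma and edgeR without robust dispersions. It was 6 with DESeq2 and 0 to 2 with single libraries left out (Gm26917 and Ubb, without untreated Ripk3-/- replicate 1). The labels do not say that replicate numbers mark shared cultures, and not every same-number pair correlated above 0.1: 14 of 30 did (range -0.21 to 0.49), among them 4 of 5 pairs within Ripk3-/- and 3 of 5 within wild-type cells, and 9 matched their own number best. With a replicate block edgeR called 4 genes (Aldh1a7, Gm26917, Dusp4 and Ubb), and 3 with the block within genotype; for Dusp4 the block gave an SE of 0.086 (edgeR adjusted p = 0.0157, or 0.0207 within genotype). Added after the data were seen, a term for replicates 1 to 3 against 4 and 5 called 1 gene (Dusp4), replicates 1 to 3 alone called 1 (Dusp4), and replicates 4 and 5 alone called 2 (Rpl39 and Rps21) and lowered the palmitate calls to 269 in Ripk3-/- and 448 in wild-type cells. Genes with an unadjusted p under 0.05 numbered 133 to 223 with single libraries left out, 79 among the 984 genes listed for palmitate in both genotypes and 109 among the 2239 listed for genotype. The median difference was -0.030 with TMM.

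Signs reversed with replicates 1 to 3 alone for Cideb (-0.040), Agpat2 (-0.034), Bid (-0.018) and Gsta1 (-0.18), and with replicates 4 and 5 alone for Aldh1a1 (-0.027), Tlr4 (1.01), Krt19 (-0.019), Tagln2 (0.0086), Pdk4 (-0.10) and Aldh1l2 (0.15). Leaving out single libraries gave ranges across 0 for Aldh1l2 (-0.080 to 0.059), Cd68 (-0.14 to 0.047), Fosb (-0.58 to 0.060), Gsta1 (-0.51 to 1.43), Pdk4 (-0.065 to 0.15) and Ripk3 (-0.20 to 0.43). The causes were not tested. Depth limits the low genes most, as the intervals by level show, and genes listed in 1 genotype only are mostly not covered.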

Other observations

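Gene lists of the matrix, the secretory pathway and interferon signalling had medians within 0.06 of zero. Extracellular matrix and integrin genes had a median difference of -0.06 over 11 tested of 28; Itga2, a collagen-binding integrin, rose by 0.38 in wild-type cells and stood at 0.12 in Ripk3-/- cells (difference -0.26, SE 0.09). Endoplasmic reticulum chaperones had -0.03 over 6 of 28, with Dnajc3, a cochaperone of BiP, at 0.01 in Ripk3-/- cells and up by 0.11 in wild-type cells. Among 4 interferon-linked genes tested of 32, Gbp2, a guanylate-binding protein, fell by 0.94 on the log2 scale in Ripk3-/- cells and by 0.55 in wild-type cells (difference -0.40, SE 0.16). Lysosome and autophagy genes ranged from -0.04 to 0.04 over 9 of 27, and lipid droplet genes had a median of -0.01 over 10 of 26. Apoptosis and p53 targets had 0.009 over 8 of 29, mesenchymal markers -0.002 over 9 of 18, and cholangiocyte markers 0.03 over 4 of 13.

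Solute carriers and glycolytic genes had a median of -0.05 over 11 tested of 26 with wide ends. Slc2a2, the hepatic glucose transporter, rose by 0.23 in Ripk3-/- cells and stood at -0.04 in wild-type cells (difference 0.27, SE 0.09). Lrp8, a lipoprotein receptor, rose by 0.27 in Ripk3-/- cells and by 0.63 in wild-type cells (difference -0.35, SE 0.11). Prss23, a secreted serine protease, was the gene among the 20 with the smallest p that fell more in Ripk3-/- cells, by 0.70 on the log2 scale, against a fall by 0.38 in wild-type cells (difference -0.32, SE 0.10), and the antisense transcript Prss23os overlaps it. Polyubiquitin and proteotoxic stress genes had -0.02 over 3 of 23, and of 15 mitochondrially encoded genes 2 were tested, mt-Nd3 with a difference of 0.69 (SE 0.34) and mt-Rnr1 with -0.10 (SE 0.09). Without untreated Ripk3-/- replicate 1 the difference was 0.49 for mt-Nd3 and -0.16 for mt-Rnr1.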
